A study of Bos taurus with 2 samples.

Results

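The probes described here are the gene probes of a bovine expression array whose 60-base sequence holds a run of 5 or more G and no run of 5 or more C. The rule uses the sequence alone and no measured value. They number 1193 of the 43652 gene probes on the array and carry 1158 gene names. Their longest run was 5 G in 956 probes, 6 G in 234 and 7 G in 3. For 786 of them, in 757 genes, the array holds at least 1 other probe of the same gene without a G run, 1493 in all, and 407 have none. A further 63 probes hold both a G run and a C run and were left out.

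The study compared the RNA of 2 fractions of whey, the liquid part of milk, from raw milk of Holstein cows. Whey was spun at 10000 g for 90 min, and the fraction called exosome (small membrane vesicles released by cells) is the pellet, washed with 2 further spins, while the fraction called supernatant is the liquid above it. For each fraction total RNA of 3 samples was mixed in equal amounts, labelled with the dye Cy3 from 100 ng as complementary RNA, and hybridised to 1 array of its own, so there were 2 arrays in all, 1 per fraction, with no replicates, no test and no p-value. The labels give no treatment of the animals, and the spin speed is as the labels state it, below what is usual for pelleting small vesicles. Of 9 marker genes of mammary epithelium fixed for a check of the source, 9 had a probe well above background on the exosome array, with 7 on the supernatant array; of 5 leukocyte markers 3 did on each, and of 2 red cell markers 1 did on each, and none of these markers has a G-run probe.

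Probes of this kind are built base by base on glass and are held to it by their 3′ end, so the 5′ end points into the solution. They carry the sense sequence of a transcript and capture labelled RNA of the opposite strand. Runs of guanine are a known difficulty of such designs. A run pairs strongly with any run of cytosine in the labelled RNA, and guanine tracts can stack on each other into folded structures within a strand or between neighbouring strands. For these reasons the brightness of an oligo depends on its own bases as well as on its target, and all comparisons between probes below are between oligos, not between transcript levels.

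The sequences below show members of named genes with the largest differences on the supernatant array between a G-run probe and the other probes of its gene. Each runs 5′ to 3′, positions are counted from 1 at the 5′ end, and capitals mark every run of 5 or more G. The first 6 were far brighter on the supernatant array than the other probes of their genes. They belong to SLC22A5 (chr7:20728525-20728584), CTU1 (chr18:57047306-57047365), TK1 (chr19:55568869-55568928), CCDC22 (chrX:55233154-55233213), USP21 (chr3:9258151-9258210) and SLC23A3 (chr2:111515250-111515309). The next 3 were the dimmest on the supernatant array against the other probe of their gene and belong to TBX1 (chr17:76292934-76292993), SLC16A11 (chr19:27198223-27198282) and BCAM (chr18:52352904-52352963). Coordinates are those of the array files in build HGSC Btau_3.1. The TK1 and BCAM probes are listed in ascending order of coordinates and the others in descending order. Whether a probe lies in an exon, an intron or an untranslated region, or also matches other places in the genome, was not analysed here.
SLC22A5: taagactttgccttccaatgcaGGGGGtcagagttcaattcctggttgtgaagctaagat
CTU1: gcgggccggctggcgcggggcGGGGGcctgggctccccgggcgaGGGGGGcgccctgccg
TK1: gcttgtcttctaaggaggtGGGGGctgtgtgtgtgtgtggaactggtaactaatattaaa
CCDC22: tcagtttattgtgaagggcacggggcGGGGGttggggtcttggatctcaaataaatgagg
USP21: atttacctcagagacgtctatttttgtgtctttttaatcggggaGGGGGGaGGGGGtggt
SLC23A3: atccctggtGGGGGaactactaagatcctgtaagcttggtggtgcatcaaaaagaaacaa
TBX1: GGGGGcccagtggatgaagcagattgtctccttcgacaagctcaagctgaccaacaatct
SLC16A11: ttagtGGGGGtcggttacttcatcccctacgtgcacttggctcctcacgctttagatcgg
BCAM: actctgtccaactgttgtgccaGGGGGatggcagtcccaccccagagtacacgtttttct

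A second set shows overlapping probes of a gene, one with the run and one without it. In PXK the member (chr22:43774887-43774946) and the other probe (chr22:43774900-43774959), both listed in descending order, share 47 bases, and the G run of the member lies at its 3′ end, outside the shared stretch. In PRDX6 the member (chr16:51954249-51954308) and the other probe (chr16:51954255-51954314) share 54 bases, and the other probe starts inside the run. In RALY the member (chr13:64331443-64331502) and the other probe (chr13:64331462-64331521) share 41 bases, and the other probe again starts inside the run. The last pair overlaps less and belongs to GLYCAM1, a milk glycoprotein gene, whose member (chr5:28324972-28325031) starts downstream of the other probe (chr5:28324941-28325000).
PXK member: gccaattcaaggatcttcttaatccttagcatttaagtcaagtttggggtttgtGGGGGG
PXK other probe: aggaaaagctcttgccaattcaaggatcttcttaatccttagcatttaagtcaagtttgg
PRDX6 member: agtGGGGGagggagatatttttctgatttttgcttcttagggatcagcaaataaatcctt
PRDX6 other probe: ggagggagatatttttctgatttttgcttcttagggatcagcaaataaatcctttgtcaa
RALY member: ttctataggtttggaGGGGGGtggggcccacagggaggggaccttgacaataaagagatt
RALY other probe: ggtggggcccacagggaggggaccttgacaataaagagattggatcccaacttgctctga
GLYCAM1 member: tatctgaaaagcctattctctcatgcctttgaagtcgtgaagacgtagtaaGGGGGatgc
GLYCAM1 other probe: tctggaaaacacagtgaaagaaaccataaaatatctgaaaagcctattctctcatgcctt

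Values are the scanner software's processed signals, an intensity after background subtraction that was not scaled between the arrays. The error after a ± sign is the software's own error estimate for that spot, with 1 spot per array. A probe is called well above background where the software set that mark, and the lowest signal of a spot with the mark was 11.3 on the exosome array, with 9.04 on the supernatant array. Negative control spots had a median signal of 2.64 and a 99th percentile of 7.85 on the exosome array, and 2.08 and 4.32 on the supernatant array. For 50 probes printed on 4 spots the log2 signal had an SD of 0.21 between spots on the exosome array, with 0.34 on the supernatant array. None of these 50 is a G-run probe, so the members have no spot replicates. No spot was saturated, and the median local background was 52 for the members and for all probes on each array.

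G-run probes were well above background far more often than other probes on the supernatant array, and a little more often on the exosome array. On the supernatant array 446 of the 1193 members (37.4%) had the mark, against 13.1% of all gene probes. The exosome array had 766 such members (64.2%), against 58.5% of all gene probes. The median log2 signal of the members was 2.88 on the supernatant array, where all gene probes had 1.32, and 5.00 on the exosome array, where all had 4.81. The shift on the supernatant array covered the middle and upper range of the members: their 25th and 75th percentiles of log2 signal were 1.58 and 4.05, against 1.03 and 2.31 for probes without a G run.

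Most of this was found in members that also stood above background in the pellet, but the members also held many probes seen in the supernatant alone. Of the 1193, 371 were well above background on both arrays, 395 on the exosome array alone, 75 on the supernatant array alone and 352 on neither. The 75 are 6.29% of the members, while 0.978% of all gene probes had the mark on the supernatant array alone. Seen from the other side, members made up 2.73% of all gene probes, 3.00% of the probes well above background on the exosome array, 7.78% of those on the supernatant array and 17.6% of the 427 probes marked on the supernatant array alone. Among the 1000 brightest probes on the supernatant array 45 (4.5%) were members, and among the 100 brightest 1 was.

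Base composition differed between the groups. The members had a median of 27 G plus C, 17 of them G and 11 C, and probes with neither a G run nor a C run had 26, with 13 of each. With probes without a G run weighted to the G plus C counts of the members, which 1191 of the members allow, their share well above background was 15.6% on the supernatant array and 58.6% on the exosome array. Within probes that all hold 15 to 19 G, the share on the supernatant array was 7.90% where the longest run was 2 G, 9.19% for 3 G, 13.8% for 4 G, 29.5% for 5 G (464 probes) and 57.6% for 6 G (125 probes). The order by run length was thus also seen among probes of like G content.

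From 3 G upwards to 6 G the share on the supernatant array was higher the longer the run. Among all probes without a C run it was 13.3% where no 2 G stand together, 10.659% for a longest run of 2 G, 11.1% for 3 G, 15.4% for 4 G (3821 probes, just outside the choice), 30.9% for 5 G (295 of 956, just inside it) and 63.7% for 6 G (149 of 234). Of the 3 members with 7 G, 2 had the mark. The exosome shares were 64.1% for single G, 57.4% for 2 G, 56.3% for 3 G, 57.7% for 4 G, 61.1% for 5 G and 76.9% for 6 G, so 5 G lay below single G there. The number of guanine tracts went with the share as well: counting tracts of 3 or more G, it was 28.3% on the supernatant array for members with 1 tract, 45.0% with 2 and 53.5% with 3, while 30 of the 40 with 4 or more had the mark. These groups also differed in G content, with medians of 16, 18, 20 and 24 G, and were not compared at like G content.

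The place of the run in the probe went with the share on the supernatant array and hardly on the exosome array. With the run starting in bases 1 to 20, 21 to 40 and 41 to 60 from the 5′ end, the share of members well above background was 32.5%, 37.4% and 44.0% on the supernatant array, and 65.3%, 62.8% and 64.4% on the exosome array. For the mark on the supernatant array alone the shares were 3.69%, 6.53% and 9.58%. The runs nearest the glass therefore had the highest share on the supernatant array. Among members with 28 to 34 G plus C the supernatant shares were 38.5%, 36% and 47.1%, so the order of the first 2 places turned there. Probes with a C run went the other way, with 50.5%, 48.1% and 24.7% on the supernatant array and 83.4%, 83.6% and 66.7% on the exosome array. The base just before the run also differed: 26.7% of members with A there were well above background on the supernatant array, 43.5% with C and 42.7% with T.

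The 1343 probes with a run of 5 or more C and no such G run are the nearest counterpart, and they were bright on both arrays. The share with the mark was 78.4% on the exosome array, with 42.0% on the supernatant array. Probes with a run of 5 or more A but no G or C run had 14.3% on the supernatant array, and those with a T run had 10.9%. G runs and C runs thus had like shares on the supernatant array and differed on the exosome array and in the link between the arrays. Only 9 C-run probes (0.67%) had the mark on the supernatant array alone, against the 75 members.

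That link can be read along the exosome signal. Among probes with an exosome signal of 4 to 16, 32.1% of the members were well above background on the supernatant array, against 5.43% of C-run probes and 5.24% of probes with neither run. At 16 to 64 the shares were 48.7%, 23.9% and 12.2%. Above 1024 they were 58.6%, 83.1% and 34.4%. From 16 to 1024 the share of the members thus lay between 42.7% and 48.7% with no rise, while C-run probes went from 23.9% to 125 of 250 over the same range. Among probes without the mark on the exosome array, 75 of 427 members (17.6%) had it on the supernatant array, 9 of 290 C-run probes and 343 of 17391 probes with neither run (1.97%). Across probes, Spearman's rho between the log2 signals of both arrays was 0.34 for the members, 0.65 for C-run probes and 0.30 for probes with neither run, given as a description since the probes of an array share its RNA and background.

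Set against the other probes of the same genes, the G-run probes were brighter on the supernatant array by median, with a wide spread. Among the 786 members whose gene has another probe, 296 (37.7%) were well above background there, against 222 of the 1493 other probes (14.9%). The exosome shares were 69.7% and 65.0%. The within-gene difference is the log2 signal of the member minus the median of the other probes of the gene on the same array, so no scaling between arrays enters it, and it also uses signals near background. Its median over the 757 genes was 1.01 on the supernatant array (quartiles -0.14 and 2.28) and 0.53 on the exosome array (quartiles -1.40 and 2.70). The exosome median turns to -0.21 if the brightest of the other probes is taken in place of their median, so no direction is given for it. By member, the supernatant median was 1.40 for the 599 without another probe well above background there. For the 187 with such a probe it was -0.35, with 29.4% at least 2-fold brighter and 35.8% at least 2-fold dimmer. Probes with neither run gave 0.03 and -1.13 in the same states. The states are set by the signals of the other probes, which also enter the difference.

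By count, the member was at least 2-fold brighter than the other probes in 379 genes (50.1%) on the supernatant array and at least 2-fold dimmer in 77 (10.2%). Probes with neither run, each set in the same way against the other probes of its gene, gave 18.8% brighter and 17.7% dimmer. On the exosome array the member was at least 2-fold brighter in 331 genes (43.7%) and dimmer in 217 (28.7%), beside 31.7% and 32.7% for probes with neither run. On the supernatant array the members thus lay to the bright side of that background, while for the exosome array no direction is given, for the reason above. In 219 genes the member was at least 2-fold brighter on both arrays, in 160 on the supernatant array alone and in 112 on the exosome array alone, which are 28.9%, 21.1% and 14.8% of the 757. For the 781 genes with a C-run probe these shares were 40.3%, 14.1% and 16.01%. In 69 genes the member was at least 2-fold dimmer on the exosome array and at least 2-fold brighter on the supernatant array (9.11%, against 5.38% for genes with a C-run probe). Probes with neither run were not counted probe by probe for these joint patterns. How far the joint shares exceed the usual spread between probes was therefore not tested.

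Run length ordered these differences too. For members with 5 G the median difference was 0.62 on the supernatant array and 0.25 on the exosome array, and for members with 6 G it was 2.16 and 1.36. Across genes the log2 signal of the member followed that of the other probes on the exosome array (Spearman's rho 0.49) and hardly on the supernatant array (0.06). Probes with neither run gave 0.62 and 0.08 by probe, so the low value on the supernatant array was not particular to the members. For genes with a C-run probe the median difference was 1.30 on the supernatant array and 1.51 on the exosome array.

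On the supernatant array a G-run probe was often the only probe of its gene above background. Of the 757 genes, 386 had any probe well above background there, and in 206 of these (53.4%) it was the member alone. Other probes alone gave the mark in 97 genes, both kinds in 83, and 371 genes had none. For the exosome array the member alone gave the mark in 83 of 644 genes (12.9%), the other probes alone in 115 and both in 446. With the count held to the 420 genes that have 2 or more other probes, the member alone gave it in 93 of 235 detected genes on the supernatant array (39.6%) and in 23 of 375 on the exosome array (6.13%). With the weaker flag for a positive and significant signal the supernatant share was 30.7% (216 of 703), so the 53.4% depends on the flag. Where no other probe of the gene was well above background on the supernatant array, 211 of 599 members (35.2%) were, against 271 of 656 C-run probes (41.3%) and 1963 of 21822 probes with neither run (8.996%). Of the 187 gene symbols with a probe well above background on the supernatant array and none on the exosome array, 28 (15.0%) had a member with the mark, in all 28 the members alone gave it, and 5.39% of all gene symbols on the array hold a member.

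Overlapping probes compare oligos that have part of their target in common. For 13 genes a member and another probe share 30 to 54 of their 60 bases, and this comparison was added after the data had been seen. On the exosome array 9 of the 13 pairs lay within 2-fold of each other, with a median difference of -0.14. On the supernatant array the member was at least 2-fold brighter in 7 pairs and dimmer in 1, with a median difference of 1.40. Only 4 of the 13 members and 2 of the other probes were well above background there, and in 4 of the 7 brighter pairs (OR10Z1, LIMA1, DFFB and a gene without a symbol) neither probe was. For the 6 pairs whose member has a run of 6 or more G, the medians were 0.01 on the exosome array, with 2.15 on the supernatant array. Over 15 pairs of a C-run probe and an overlapping probe with neither run, the median difference was 0.96 on the exosome array, with 0.38 on the supernatant array.

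PXK, a gene for a kinase-like protein with a phosphoinositide-binding domain, shows the pattern most fully, and it and the next 4 genes are named for it after their values were seen. Its member read 186 ± 18.9 and the overlapping probe 167 ± 16.8 on the exosome array. On the supernatant array the member read 18.99 ± 2.92 and the overlapping probe 1.87 ± 1.87, which was not well above background. The pair was thus level in the pellet and split in the supernatant. For PRDX6, which encodes the antioxidant enzyme peroxiredoxin 6, the exosome signals were 1268 ± 127 for the member and 1644 ± 164 for the other probe, and the supernatant signals were 15.3 ± 2.42 and 2.12 ± 1.92. For RALY, an RNA-binding protein gene, they were 1157 ± 116 and 2864 ± 286, and on the supernatant array 38.5 ± 4.27 and 6.57 ± 2.48. The RALY member was the dimmer probe of its pair in the pellet and the brighter in the supernatant, and the overlapping RALY probe holds a run of 4 G. DNAJC7, a co-chaperone gene, had no such split: its member read 485 and the overlapping probe, which holds a run of 4 G, 534 on the exosome array, and 84.6 and 78.6 on the supernatant array. ITPRIPL1 went the opposite way on both arrays, with 29.6 for the member against 488 on the exosome array and 2.48 against 17.5 on the supernatant array, where that other probe also holds a run of 4 G.

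The brightest G-run probe on the supernatant array belonged to SLC22A5, the gene of a carnitine transporter. It read 5859.9 ± 586 on the exosome array, with 6288 ± 629 on the supernatant array. The other probes of the gene read 417 ± 41.8 and 544 ± 54.5 on the exosome array, and 6.18 ± 2.42 and 4.01 ± 2.12 on the supernatant array, where neither was well above background. Before scaling the member was level between the arrays, and the other probes were not. Its within-gene difference of 10.30 on the supernatant array was the highest among the 757 genes, beside 3.62 on the exosome array. The member was designed from another transcript record than the other probes.

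CTU1, which encodes an enzyme that modifies transfer RNA, has the probe richest in G plus C among those named, with 55 of its 60 bases, and runs of 5 and 6 G. Its member read 391 ± 39.2 on the exosome array, with 791 ± 79.2 on the supernatant array, 2.02-fold brighter in the latter before scaling. Its other probes read 290 ± 29.2 and 3.04 ± 3.03 on the exosome array, with 2.01 ± 2.001 and 2.45 ± 2.45 on the supernatant array. Only the member was well above background there. USP21, the gene of a deubiquitinating enzyme, had the largest such excess among the genes named: 55.8 ± 6.25 on the exosome array, with 257 ± 25.8 on the supernatant array, 4.60-fold brighter, while its other probe read 20.6 ± 3.22 and 1.88 ± 1.87.

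The other 3 genes with the highest differences on the supernatant array followed the same form. The member of TK1, thymidine kinase, read 591 ± 59.1 and 492 ± 49.2 on the exosome and supernatant arrays, and the other probe 6.63 ± 2.74 and 2.08 ± 2.07, below the mark on both. For CCDC22, part of a complex that recycles membrane proteins, the member read 934 ± 93.4 and 321 ± 32.2 and the other probe 27.8 ± 3.81 and 2.02 ± 2.01. For SLC23A3, a member of a nucleobase and ascorbate transporter family, the member read 155 ± 15.7 and 216 ± 21.7, and the other probe 2.72 ± 2.71 and 2.23 ± 2.22. In each of these genes the member was well above background on both arrays, and no other probe was on the supernatant array.

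Long runs did not always go with a bright supernatant spot. GSDMD, the gene of the pore-forming protein gasdermin D, has a member with 7 G at bases 51 to 57 (chr14:952790-952849) that read 150 ± 15.3 on the exosome array, with 9.62 ± 2.36 on the supernatant array, not well above background. DYRK1B, a protein kinase gene, has a member with 7 G at bases 5 to 11 (chr18:48904307-48904366) that read 3880.4 ± 388 and 98.7 ± 10.2, and a second member with 5 G that read 24.2 ± 3.36 and 7.87 ± 1.99. The brightest DYRK1B probe on each array was a C-run probe, with 5108 ± 511 and 435 ± 43.6, and a probe with neither run read 45.0 ± 5.02 and 4.24 ± 1.86. For ADCY6, an adenylyl cyclase gene with 6 G in its member (chr5:34045903-34045962), the member read 219 ± 22.1 and 152 ± 15.4, while its 3 other probes lay between 2.43 and 32.5 on the exosome array and between 1.97 and 2.73 on the supernatant array.

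These members are printed here because they hold runs of 7 or 6 G at different places in the probe. The DYRK1B line shows the run next to the free end, and the GSDMD line the run next to the glass.
DYRK1B: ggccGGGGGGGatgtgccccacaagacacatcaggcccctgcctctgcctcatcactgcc
GSDMD: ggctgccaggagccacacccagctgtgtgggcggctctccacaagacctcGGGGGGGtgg
ADCY6: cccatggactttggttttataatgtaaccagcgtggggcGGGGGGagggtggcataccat

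Further members among the 5 brightest named ones on the supernatant array were also brighter there than on the exosome array before scaling. The member of SLA, an adaptor protein gene of lymphocyte signalling (chr14:7757056-7757115), read 214 ± 21.6 and 681 ± 68.2. Neither other probe had the mark on the exosome array, while 1 of them read 18.5 ± 2.59 on the supernatant array, which had the mark. LOC100850263 (chr7:17308669-17308728), whose probe holds 3 separate runs of 5 G, read 345 ± 34.7 and 653 ± 65.4. C10H15orf59, now named INSYN1 (chr10:20827330-20827389), read 152 ± 15.5 and 499 ± 49.997. Neither of the last 2 genes has another probe without a G run on the array, so nothing sets their signals against a second oligo.

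A minority of members were far dimmer than the other probes of their genes. For TBX1, a T-box transcription factor gene, the member read 3.45 ± 2.76 on the exosome array, with 5.05 ± 2.26 on the supernatant array, and the other probe 4055 ± 406 and 952 ± 95.3. For SLC16A11, a transporter gene of the monocarboxylate family, the member read 16.0 ± 2.86 and 1.88 ± 1.87, and the other probe 1899.6 ± 190 and 128 ± 13.0. For BCAM, a laminin-binding adhesion protein gene, the member read 9.15 ± 2.83 and 2.93 ± 2.08 and the other probe 2493 ± 249 and 159 ± 16.0. The supernatant signals of all 3 members were below the mark. For JAG2, a Notch ligand gene, the member read 3.28 ± 3.27 and 3.50 ± 2.76, beside 2 other probes at 2038 ± 204 and 15429.9 ± 1543 on the exosome array, with 41.5 ± 4.65 and 318 ± 32.0 on the supernatant array. These 4 genes were chosen for that difference, and its link to the G run was not tested. The other probe of TBX1, SLC16A11 and BCAM and the brighter other probe of JAG2 hold a run of 4 C. The members of SLC16A11, BCAM and JAG2 do so as well. The other TBX1 probe has 49 G plus C. Among probes without a G run, the share on the supernatant array was 7.79% for a longest run of 2 C, 13.6% for 3 C and 26.6% for 4 C. A link of the C run to the differences in these 4 genes was not tested either.

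On the exosome array the largest excess was that of LAMTOR2, a gene of the complex that anchors nutrient signalling to lysosomes. Its member (chr3:16045983-16046042) read 8668 ± 867 on the exosome array, with 64.3 ± 6.90 on the supernatant array, and the other probe 2.41 ± 2.40 and 1.85 ± 1.85. The other probe comes from a different record listed in the opposite order of coordinates, and whether the pair reports the same strand was not tested. Over all 1561 pairs of a member and another probe, 24 (1.69% of those with both probes mapped) had opposite orders. DGKA, a diacylglycerol kinase gene, had 1692 ± 169 on the exosome array and 6.96 ± 2.09, below the mark, on the supernatant array for the member, against 2.87 ± 2.86 and 2.37 ± 2.36. PPP1R12C, a regulatory subunit of myosin phosphatase, had 1991 ± 199 and 15.0 ± 2.38 for the member, against 3 other probes from 2.54 to 54.1 on the exosome array and from 1.85 to 3.86 on the supernatant array. PLA2G16, a phospholipase gene, had 9630.1 ± 963 and 2.08 ± 2.07 for the member, against 19.98 ± 4.05 and 10.998 ± 3.15 for the other probe. Neither PLA2G16 probe had the mark on the supernatant array, where the member was the dimmer.

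The genes of the translation machinery and the abundant milk protein gene GLYCAM1 allow the same comparison at high exosome signal. The GLYCAM1 member read 176536 ± 17654 on the exosome array, with 134 ± 13.6 on the supernatant array, and the other probe 135760 ± 13576 and 37.7 ± 4.47. The pair differed by 0.38 on the log2 scale in the pellet and 1.83 in the supernatant. Among ribosomal protein genes whose member comes from the gene's own RefSeq record, the RPS2 member read 171243 ± 17124 and 22.2 ± 3.37, with its 4 other probes between 71372 and 203389 on the exosome array and between 9.86 and 288 on the supernatant array. The RPL7 member read 110901 ± 11090 and 28.6 ± 3.73, and its 6 other probes lay between 6415 and 128713 and between 4.00 and 248. In both genes the member lay inside the range of the other probes on each array.

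The RPS10 member, at 31112 ± 3111 and 24.9 ± 3.17, was below both other probes of its gene on each array, which read 161384 and 196007 on the exosome array, with 244 and 267 on the supernatant array. Among GLYCAM1, RPS2, RPL7 and RPS10 the member was thus brighter than every other probe of its gene in the supernatant in GLYCAM1 alone.

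The largest deficits on the exosome array belonged to members designed from other records than the gene's RefSeq one, 3 of them without a position in the files. The RPL30 member read 2.28 ± 2.28 on the exosome array, with 6.95 ± 1.97 on the supernatant array, while its other probes read 37674 and 38961 and then 35.6 and 33.04. The RPS16 member read 23.5 ± 3.90 and 10.8 ± 2.78 and its other probes 180636 and 202408, then 47.4 and 54.0. The ATP5G3 member (now ATP5MC3, a subunit of ATP synthase) read 2.32 ± 2.31 and 2.97 ± 1.90 against 14955 ± 1496 and 1.90 ± 1.89. The member of EIF3K, a translation initiation factor subunit, read 3.56 ± 3.23 and 2.46 ± 2.46, against 3 other probes from 6.66 to 21407 and from 2.08 to 47.4. The other probe that read 6.66 and 2.08 was designed from the same record as the member and lacked the mark on both arrays. Those from the RefSeq record read 20122 and 21407 on the exosome array. None of these 4 members was well above background on the supernatant array.

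Genes with 2 members show how far G-run probes of the same gene differ among themselves. In 35 genes, 7 had both members well above background on the supernatant array, 9 had 1 and 19 had none. Where the 2 members share 30 or more bases (13 genes), they differed by a median of 0.30 on the log2 scale on the exosome array, with 1.11 on the supernatant array, without regard to sign. For GABARAP, an autophagy gene chosen as an example after its values were seen, the overlapping members read 54618 and 53057 on the exosome array, with 46.0 and 17.96 on the supernatant array. Members are not independent readings in this sense: 40 of the 1193 share 30 or more bases with another member.

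Between the fractions, the members well above background on both arrays were brighter on the exosome array before scaling, but less so than other probes. Over these 371 the median difference was 2.29 on the log2 scale (quartiles 0.22 and 4.79), against 3.38 over all 5307 gene probes with the mark on both arrays, which puts the members 1.08 lower. The sign of 2.29 rests on the lack of scaling: it turns to -3.27 with the 75th percentile of each array subtracted, and the distance from all probes does not move with that scaling. At least 2-fold brighter on the exosome array were 65.0% of the members, beside 80.2% of all such probes, and at least 2-fold brighter on the supernatant array were 9 members (2.43%), beside 1.39% of all. In the 69 genes where a member and another probe both had the mark on both arrays, the member's difference was the lower in 41, with medians of 3.29 for the members and 3.83 for the other probes. No error over replicates can be given for any of these values, since each fraction has 1 array.

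The members were spread over the genome. The files place 1140 of them, with 53 unplaced. Chromosome 18 holds 88 members (7.38%, against 4.88% of all gene probes), chromosome 19 holds 83 (6.96%, against 5.42%) and chromosome 25 holds 55 (4.61%, against 3.14%). A gene symbol was given for 953 members, and all 1193 sequences are distinct.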

How the data were processed

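The arrays were 1-colour Agilent bovine arrays. The authors deposited the output of Agilent Feature Extraction 10.7.3.1, per the submitters' processing notes. Its processed signals are intensity values with background removed and a spatial trend corrected, on each array by itself, per the file headers. A second deposited table by the authors holds log2 values, and these matched the log2 processed signal to a tolerance of 0.001 in each of the 43602 probes printed once. What else the authors did is not given in the sources used here. With 1 array per fraction, that number limits the precision, and any difference between fractions may equally be one between arrays.

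Control spots and outlier spots were left out and spots of a probe were averaged, which left 43652 gene probes. No outlier spot was a member. Runs were counted in the sequence column of the files. Gene names are those of the files; the accession of 716 members was in a RefSeq gene table of assembly ARS-UCD2.0, used for names only, which updated 56 symbols. Work was done in Python 3.11.15 with pandas 2.3.3 and R 4.3.3 with limma 3.58.1 (normexp, offset 50), and tested on simulated data.

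Named genes are those with the 6 highest and 4 lowest within-gene differences on the supernatant array and the 4 highest and 4 lowest on the exosome array, among named genes with a probe well above background there, the 5 with the longest run, milk and ribosomal protein genes holding a member, and the 5 brightest on the supernatant array. Not every gene that this rule takes is reported here. The members, lists and rules were chosen with earlier results of these data known. The alternatives changed the run length, the flag, the probes compared, the background correction and the scaling.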

Additional observations from a re-analysis of the deposited data

How the results depend on the processing

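The 175 recomputed values are of the main results and of single genes. Among the main counts, shares and medians 35 kept their direction and stayed near their size. A further 24 moved, which includes small differences that changed sign, and 2 larger ones reversed. Those that moved or reversed follow. The share of members well above background on the supernatant and exosome arrays became 20.6% and 59.2% with runs of 4 or more G, 63.7% and 76.8% with 6 or more, 80.2% and 85.8% with the weaker flag for a positive and significant signal, and 11.1% and 46.2% with a signal at least 4 times the lowest one well above background. These follow from a wider, narrower, laxer or stricter definition. The median within-gene difference on the supernatant and exosome arrays became 0.13 and 0.065 with runs of 4 or more, 2.16 and 1.43 with 6 or more, 0.55 and -0.21 against the brightest other probe, and 0.11 and 0.12 with normexp, whose offset of 50 compresses low signals. On the supernatant array it became 2.16 over the 386 genes with a probe well above background. In 206 of these the member alone had the mark, so the filter itself favours bright members. Against overlapping probes, added after the data were seen, it was 1.40 on the supernatant array and -0.14 on the exosome array. The exosome minus supernatant median became -3.27 and -3.16 with the 75th percentile over all probes or over those on both arrays subtracted, 1.64 without the filter on dim probes and 1.08 with normexp; scaling cannot change the distance from all probes. Genes marked by the member alone numbered 93 and 23 where 2 or more other probes were required; fewer genes qualify, and the share of detected genes was lower too (39.6% and 6.13%). For runs starting in bases 1 to 20 the supernatant share became 38.5% among probes with 28 to 34 G plus C; the cause was not tested. Among single genes 93 values kept their size within 2-fold, 21 moved and none changed sign. Many of the 93 could not move, since the setting left the same probes or the same values, as where a gene has 1 other probe. Normexp moved the difference of every one of these genes, for CTU1 from 8.48 to 3.62 and for SLC16A11 from -6.10 to -1.61. No paired analysis was possible because each fraction has 1 array. Signals below the mark are near background, so the dim side of a difference is limited by background.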
